A study of Mus musculus with 36 samples.

Results

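Retina collected 2 weeks after bead injection to induce glaucoma was compared with retina of bilaterally naive mice. The comparison holds 4 of the 36 bulk RNA-seq libraries of a study of mouse retina and optic nerve after injury: the female and the male glaucoma library at 2 weeks, and the female and the male naive library at 0 days, chosen by their labels for tissue, time and treatment. The mice were C57BL/6 of 2 to 4 months, and the labels name no transgene or mutant allele in any group. Microbeads had been injected into the anterior chamber of one eye to raise its pressure, and pressures were not analysed here. Each library was made from RNA of 2 mice of one sex mixed in equal amounts, so a group is 1 female and 1 male pool, and a difference between the pools of a group cannot be told apart from a difference between the sexes. The p-values measure only the spread between such pools. Neighbouring groups used for comparison were glaucoma retina at 3 days and 6 weeks and retina 2 weeks after optic nerve crush, with the same strain, ages and pooling and 2 pools each. Retina was dissected with little or no pigment epithelium.

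Glaucoma is a loss of retinal ganglion cells, the neurons whose axons form the optic nerve, and raised eye pressure injures those axons where they leave the eye. The Müller glia and astrocytes of the retina answer many kinds of injury with a stress response, in which cytokines of the interleukin-6 family signal through the receptor subunit gp130 to the transcription factor Stat3, the intermediate filament gene Gfap is switched on, and injured photoreceptors release endothelin 2. Microglia, the resident phagocytes, and complement, a cascade of proteins that tags cells and synapses for removal, are often engaged at the same time.

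The 4 libraries held 32.5 to 43.8 M estimated counts each, and the 12 retina libraries 19.93 to 55.99 M. Levels are given in CPM, the counts of a gene scaled to the size of its library, and 1 count was worth 0.0236 to 0.0307 CPM in these 4 libraries. Paired values of a group are those of the female and then the male pool. Genes for rod photoreceptors were by far the highest of the marker lists in all 4 libraries, with summed levels of 83012 to 91590 CPM over 13 genes, as a retina label requires. Sex-linked genes matched the label in 12 of 12 retina libraries. Marker genes of neighbouring tissue differed between the groups. The 11 listed genes of pigment epithelium and melanocytes summed to 171 and 265 CPM in naive retina and to 131 and 102 CPM at 2 weeks, with 9 of 11 lower in both glaucoma pools than in both naive pools and a median log2 fold change of -1.26. The 8 oligodendrocyte and myelin genes, which mark nerve tissue, summed to 134 and 124 CPM in naive retina and 109 and 89.5 CPM at 2 weeks, with 7 of 8 lower in both pools. The part of these tissues in the results was not tested.

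With edgeR, whose quasi-likelihood test was the main test, 0 of 23301 genes passed an adjusted p under 0.05 with a change of more than 2-fold against naive retina in either direction, and percent called was 0 in both. The lowest adjusted p was 0.179, while 1465 genes, or 6.29%, had an unadjusted p under 0.05. DESeq2, the tool of the study, fitted to the same libraries with the same sex term, called 75 genes higher (0.34% of 22045) and 25 lower (0.113%). The median log2 fold change over all genes was 0.01. Below, a gene is called higher or lower by DESeq2 only, and the edgeR log2 fold change is given with a standard error and adjusted p. That standard error was worked out from the test, as the absolute log2 fold change over the square root of its F statistic. Both glaucoma pools lay above both naive pools in 20.5% of all genes and below them in 19.1%. They did so with a log2 fold change beyond 1 in 6.56% and 3.35% of genes. Counts over gene lists are to be read against those shares. The lists were chosen with earlier results of these data known, so a count above those shares is not independent evidence.

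Windows around the start sites of 4 genes of the glial stress response were read from RefSeq (mouse build GRCm38.p6). They show letters that match search patterns for Stat and AP-1 sites, in which N is any base. These 4 were picked because their windows hold a match, and the windows of Stat3, Edn2, Fgf2, Serpina3n and Timp1 hold none of the motifs searched. Each runs from 250 bases before the start site to 30 bases after it, 5′ to 3′ on the strand of the gene, and capitals mark the motif. Gfap and Steap4 hold the Stat motif TTCCNGGAA and Socs3 holds only the looser form TTCNNNGAA. Osmr holds TGATTCA, which matches the AP-1 pattern TGANTCA only because any base is allowed at its centre. The windows are chr11:102897171-102897450 (minus strand) for Gfap, chr5:7960222-7960501 (plus strand) for Steap4, chr11:117969337-117969616 (minus strand) for Socs3 and chr15:6874284-6874563 (minus strand) for Osmr.
Gfap: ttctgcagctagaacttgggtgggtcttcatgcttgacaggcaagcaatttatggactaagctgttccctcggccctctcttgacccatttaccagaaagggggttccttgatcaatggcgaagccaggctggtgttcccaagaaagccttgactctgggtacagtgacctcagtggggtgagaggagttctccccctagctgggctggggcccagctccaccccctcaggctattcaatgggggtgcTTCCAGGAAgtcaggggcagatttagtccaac
Steap4: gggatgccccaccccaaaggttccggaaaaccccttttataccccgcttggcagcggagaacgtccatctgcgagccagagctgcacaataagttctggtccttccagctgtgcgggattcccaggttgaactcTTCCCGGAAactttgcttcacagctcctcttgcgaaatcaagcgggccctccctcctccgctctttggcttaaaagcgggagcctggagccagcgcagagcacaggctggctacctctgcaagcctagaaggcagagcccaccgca
Socs3: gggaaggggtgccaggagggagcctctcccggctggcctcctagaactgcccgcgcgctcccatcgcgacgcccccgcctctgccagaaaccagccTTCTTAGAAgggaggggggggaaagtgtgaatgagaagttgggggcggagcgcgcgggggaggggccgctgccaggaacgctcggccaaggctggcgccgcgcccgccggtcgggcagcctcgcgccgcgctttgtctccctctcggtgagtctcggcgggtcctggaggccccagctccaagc
Osmr: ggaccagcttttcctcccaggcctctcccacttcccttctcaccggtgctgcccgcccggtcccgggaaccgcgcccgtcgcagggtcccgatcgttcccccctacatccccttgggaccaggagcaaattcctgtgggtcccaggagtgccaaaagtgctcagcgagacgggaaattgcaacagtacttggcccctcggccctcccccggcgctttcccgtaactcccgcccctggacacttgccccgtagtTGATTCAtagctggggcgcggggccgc
The match in Gfap begins 2 bases before the start site, that in Steap4 116 bases before it, that in Socs3 154 bases before it and that in Osmr 3 bases after it. Over all 32851 RefSeq windows of 300 bases from 27025 genes, searched on both strands, 1.15% held TTCCNGGAA, 8.3% held TTCNNNGAA, which includes every TTCCNGGAA, 7.81% held TGANTCA, 1.79% held the cAMP response motif TGACGTCA and 8.56% held the interferon motif GAAANNGAA. Of the 75 genes called higher by DESeq2, 51 had a window, 65 windows in all. TTCCNGGAA was in 2 of the 65 (3.08%), TTCNNNGAA in 7 (10.8%), TGANTCA in 8 (12.3%), TGACGTCA in 0 and GAAANNGAA in 5 (7.69%). The 8 windows with TGANTCA belong to 6 genes, and those of Gm20742 overlap and share a single site. Of the windows of the 6 stress genes, 1 held TTCCNGGAA, 2 held TTCNNNGAA and 1 held TGANTCA. These matches describe the letters of the windows and no binding was measured.

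The genes that the study had named as markers of retinal stress stood out most evenly. All 6 were higher in both glaucoma pools than in both naive pools and by more than 2-fold, and 5 of them were called higher by DESeq2. The median log2 fold change of the 6 was 1.37, beside 0.01 over all genes. Because the study named them from these samples, their common direction is not independent evidence.

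Edn2, the gene of the vasoactive peptide endothelin 2 (chromosome 4), measured 2.22 CPM in the female and 0.276 CPM in the male naive pool, against 38.4 and 12.7 CPM at 2 weeks. Both glaucoma pools were far above both naive pools, at 17.3 times the naive level in the female and 46.2 times in the male pool. The log2 fold change was 4.52 ± 0.50 (SE) with an adjusted p of 0.212 by edgeR and 8.19e-21 by DESeq2. Of the 7 genes of the endothelin system, Edn2 alone lay above naive in both pools and 4 lay below. The median of the 7 was -0.09. Edn3, another endothelin, had the lowest fold change, at -1.14 ± 0.85, and the receptor gene Ednrb measured 11.4 and 7.93 CPM at 2 weeks against 9.02 and 9.85 CPM in naive retina.

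Fgf2, the gene of basic fibroblast growth factor, a survival factor for photoreceptors, rose from 0.401 CPM (female) and 0.248 CPM (male) in naive retina to 39.9 and 10.9 CPM, by DESeq2. The log2 fold change was 6.14 ± 0.99, the highest among the stress genes, with an adjusted p of 0.362 by edgeR and 0.000133 by DESeq2. On the scale of FPKM, the values per kilobase of transcript that the authors deposited, the same pools read 0.357 and 0.603 in naive retina against 6.77 and 2.65, a log2 ratio of mean levels of 3.17. The pools were thus apart on both scales, but the size differed. Fgf2os, an antisense transcript of the same locus, was also called higher, at 2.03 and 1.16 CPM against 8.63 and 4.11 CPM. Use of strand in the counting is not stated in the sources used here, so the reads of this pair cannot be told apart with certainty. Among the 10 genes of the FGF system, 2 lay above naive in both pools and 4 below, with a median of -0.27.

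Gfap, the glial intermediate filament gene (chromosome 11), measured 22.4 and 20.7 CPM in the female and male naive pools and 58.9 and 48.6 CPM at 2 weeks. The pools of each group were close together and the groups were well apart. Its log2 fold change was 1.31 ± 0.17, with an adjusted p of 0.290 by edgeR and 2.28e-06 by DESeq2. Stat3, the factor that drives Gfap in reactive glia, measured 43.0 and 50.5 CPM in naive retina against 95.9 and 101 CPM, a log2 fold change of 1.07 ± 0.22 (adjusted p = 0.521 by edgeR and 0.00413 by DESeq2). Socs3, the feedback inhibitor of this pathway, measured 2.97 and 2.12 CPM against 5.96 and 5.14 CPM, and its log2 fold change of 1.14 ± 0.32 was called by neither tool (adjusted p = 0.757 by edgeR and 0.320 by DESeq2).

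Osmr, the oncostatin M receptor subunit, measured 3.56 and 4.66 CPM in naive retina against 14.5 and 8.85 CPM. The log2 fold change of 1.43 ± 0.34 had an adjusted p of 0.702 by edgeR and 0.0228 by DESeq2. The deposited FPKM did not separate the groups for Osmr: the naive pools read 0.550 and 1.94 and the glaucoma pools 2.29 and 1.71, so that the male naive pool was above the male glaucoma pool, and the log2 ratio of mean levels was 0.66.

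Per length, the order of the stress genes was different at 2 weeks. In naive retina the mean FPKM was 12.6 for Stat3, 6.91 for Gfap, 1.24 for Osmr, 0.943 for Socs3, 0.713 for Edn2 and 0.480 for Fgf2. At 2 weeks it was 26.3 for Stat3, 17.8 for Gfap, 15.2 for Edn2, 4.71 for Fgf2, 2.00 for Osmr and 1.90 for Socs3. Edn2, near the foot of the order in naive retina, held a level at 2 weeks whose pools, at 22.7 and 7.75 FPKM, spanned those of Gfap, at 19.3 and 16.4 FPKM. Osmr and Socs3, with pools of 2.29 and 1.71 FPKM and of 2.01 and 1.79 FPKM, did not differ beyond their spread.

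**Figure D1:**
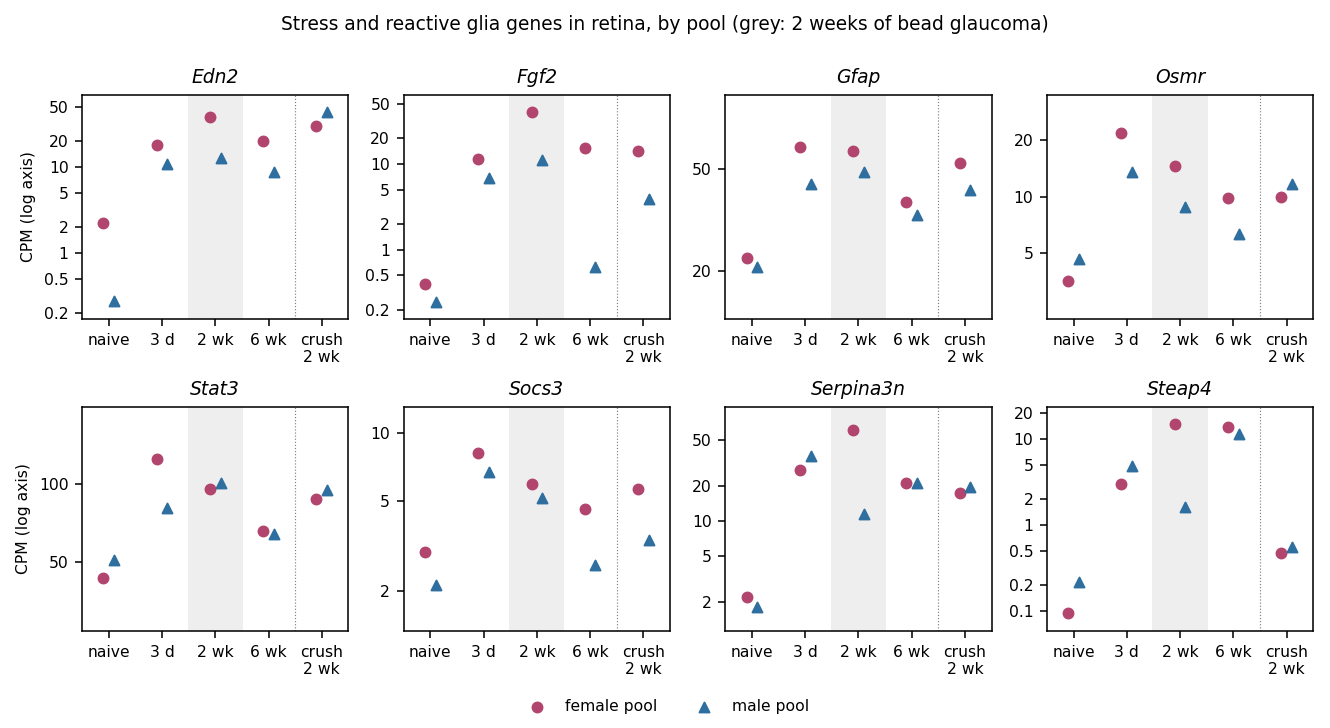
Levels of 8 stress and reactive glia genes in CPM on a log axis, with 1 point per pool (circles female, triangles male) for naive retina, 3 groups of bead glaucoma and 2 weeks after crush, with the 2 weeks of glaucoma shaded. In all 8 panels both shaded points lie above both naive points, and for Serpina3n and Steap4 the female point lies far above the male one.

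In the wider gp130 and Stat3 pathway the genes called higher were the receptor gene Osmr, Stat3 itself and 3 targets. Of 24 genes tested, 13 lay above naive in both pools and 3 below, 7 of them by more than 2-fold, and DESeq2 called 5 higher and 0 lower. The median was 0.46. Osmr, Stat3 and the target Gfap are also among the stress genes named from these samples, so their calls add no independent evidence here. Among 6 ligands tested, none was called. Cntf, ciliary neurotrophic factor, was the highest, at 4.27 and 3.92 CPM in naive retina and 14.4 and 5.80 CPM at 2 weeks (1.22 ± 0.49), and Il11 the lowest, at -0.83 ± 2.27. Il6 and Osm were too low to be tested, at no more than 0.276 CPM in any of the 4 pools. Of 6 receptors only Osmr was called, while the shared subunit gp130 itself (Il6st) measured 45.4 and 55.7 CPM against 64.3 and 60.2 CPM and was not.

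The called targets were Gfap, Bcl3 and Cebpd. Bcl3, a partner of NF-kappa-B, measured 0.590 and 0.717 CPM in naive retina against 5.96 and 2.34 CPM (2.5 ± 0.49; adjusted p = 0.490 by edgeR and 0.00843 by DESeq2). Cebpd, a transcription factor of the acute phase, measured 11.2 and 11.4 CPM against 76.0 and 16.5 CPM (1.71 ± 0.47; 0.751 and 0.00777). The female glaucoma pool carried most of the Cebpd difference. Of the other targets, Cish, an inhibitor of cytokine signalling, was the lowest at -0.44 ± 0.42.

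Lists of reactive astrocyte genes comprise those shared across kinds of injury, often called PAN-reactive, and those called A1 and A2, and the lists were not tested against each other. Of 12 PAN-reactive genes tested, 10 lay above naive in both pools, 7 by more than 2-fold, and DESeq2 called 5 higher, Gfap, Osmr, Serpina3n, Steap4 and Timp1. Their median was 1.37, and Gfap and Osmr are also among the stress genes named from these samples. Of 12 A1 genes tested, 7 lay above and 2 below, 5 by more than 2-fold, with a median of 0.86 and 1 called, Gbp2. Of 12 A2 genes tested, 3 lay above and 1 below, with a median of -0.04, and 1 was called, Stat3, which the A2 list shares with the stress genes.

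Serpina3n, a secreted protease inhibitor, measured 2.22 and 1.79 CPM in the naive pools against 60.8 and 11.6 CPM (4.01 ± 0.66; adjusted p = 0.362 by edgeR and 0.000619 by DESeq2). Steap4, a metal reductase of the cell membrane, measured 0.0944 and 0.221 CPM against 14.7 and 1.63 CPM (5.46 ± 1.10; 0.521 and 0.00272). Timp1, an inhibitor of matrix metalloproteinases, measured 0.212 and 0.441 CPM against 5.59 and 1.34 CPM (3.32 ± 0.77; 0.695 and 0.00423). In these 3 genes the groups were apart, and the female glaucoma pool was several times above the male one.

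Lcn2, the iron-binding acute phase protein lipocalin 2, had a wide spread within glaucoma, at 167 CPM in the female and 24.2 CPM in the male pool, against 4.72 and 5.52 CPM in naive retina. Its log2 fold change of 4.15 ± 1.04 was called by neither tool (adjusted p = 0.704 by edgeR and 0.0890 by DESeq2). Vim, the other glial filament gene of the list, did not separate the groups, at 94.8 and 80.5 CPM against 108 and 63.9 CPM. Of 18 genes of the Müller glia themselves, 1 lay above and 5 below in both pools, and the median was -0.04. One of them was called lower by DESeq2, Spc25, a kinetochore gene, at 288 and 292 CPM in naive retina against 153 and 132 CPM (-1.02 ± 0.27; 0.723 and 0.0278).

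Complement genes that separated the groups were all higher in glaucoma. Of 24 listed, 22 were tested, 13 lay above naive in both pools and 0 below, 9 by more than 2-fold, and DESeq2 called 2, C4b and C1ra. The median log2 fold change was 0.88. It was 0.95 between the female pools and 0.36 between the male pools, both on a scale of log2(CPM + 0.5). Hc and Cfd, for C5 and factor D, were too low to be tested.

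C4b, the complement component that follows C1 in the classical pathway, measured 4.27 and 5.30 CPM in naive retina and 63.5 and 25.1 CPM at 2 weeks (3.13 ± 0.43; adjusted p = 0.290 by edgeR and 1.30e-12 by DESeq2). It was apart in both sexes and was, with Edn2 and Gfap, one of the genes that kept the call whichever pool was left out. C1ra, a protease of the C1 complex, measured 0.614 and 0.414 CPM against 6.20 and 1.93 CPM (2.93 ± 0.69; 0.702 and 0.0155). C3, the central component, measured 1.11 and 2.26 CPM against 32.8 and 5.50 CPM, and its log2 fold change of 3.65 ± 1.24 was not called (0.782 and 0.392).

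The 3 chains of C1q, made by microglia, were above naive in both pools, but the male pool only slightly so. C1qb measured 14.1 and 13.4 CPM against 48.2 and 15.7 CPM (1.13 ± 0.42), C1qc 8.64 and 8.14 CPM against 29.5 and 13 CPM (1.33 ± 0.44), and C1qa 6.00 and 4.66 CPM against 12.5 and 6.77 CPM (0.85 ± 0.42). The remaining protease of C1, C1s1, overlapped, at 0.755 and 0.552 CPM against 2.27 and 0.448 CPM. In the next step of the cascade, C2 measured 0.755 and 1.32 CPM against 1.57 and 1.65 CPM (0.62 ± 0.57). Of the alternative pathway, factor B (Cfb) measured 0.330 and 2.79 CPM against 8.69 and 2.76 CPM and properdin (Cfp) 13.4 and 8.69 CPM against 12.2 and 16.5 CPM, and both overlapped.

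Among the regulators, which restrain the cascade, Serping1, the inhibitor of C1, lay above naive in both pools and measured 7.20 and 7.12 CPM against 44.4 and 12.1 CPM (1.93 ± 0.65). Cfi, Cd46, Cd55, Cd59a and C4bp overlapped, with log2 fold changes from -0.25 (Cd55) to 0.33 (Cd46). None of these regulators was called. Of the 5 receptors, C5ar1, Itgam, Itgb2 and Itgax lay above naive in both pools and C3ar1 did not, and none was called. Itgax, an integrin chain of activated microglia and dendritic cells, was at 0 in both naive pools and at 0.491 and 0.0944 CPM at 2 weeks, and Itgb2, its partner, measured 0.991 and 0.441 CPM against 3.41 and 1.70 CPM (1.82 ± 0.76).

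The summed levels of 3 myeloid gene lists were highest in the female glaucoma pool. The 12 genes of homeostatic microglia summed to 76.0 and 65.2 CPM in naive retina and to 107 and 76.8 CPM at 2 weeks, with 4 of 12 above in both pools, 0 called and a median of 0.44. The 20 genes of border macrophages, monocytes and neutrophils summed to 22.1 and 19.1 CPM against 30.8 and 18.6 CPM, with 3 of 16 tested above in both pools, 1 called (Wfdc17) and a median of -0.02. The lowest of that list, S100a8, a neutrophil gene, was at 0.0944 and 0 CPM in naive retina and at 0 in both glaucoma pools. The 20 genes of disease-associated and phagocytic microglia summed to 1926 and 1905 CPM against 2260 and 1623 CPM, so that the male glaucoma pool was the lowest of the 4. Of these 20, 7 lay above naive in both pools and 3 below (Lpl, Ctsd and Ctsb), with 0 called and a median of 0.66, which was 1.01 between the female and -0.18 between the male pools. Il1b, a cytokine of activated myeloid cells, was at 0.142 and 0.138 CPM in naive retina and at 0 in both glaucoma pools. These levels are near that of 1 read pair. Il1b was the lowest of 16 tested genes of IL-1, TNF and Toll-like receptors. Of the 16, 5 lay above naive in both pools and 2 below, with a median of 0.37. The part of myeloid cells in the complement result was not tested. In whole tissue, more or fewer cells of a type and more or less RNA per cell cannot be told apart.

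Tyrobp, the signalling adaptor of microglia, measured 4.98 and 5.68 CPM in naive retina against 21.6 and 7.31 CPM (1.36 ± 0.50). Lyz2, the lysozyme of macrophages and neutrophils, measured 3.49 and 4.96 CPM against 166 and 15.5 CPM (4.24 ± 1.12; adjusted p = 0.723 by edgeR and 0.149 by DESeq2). Cd74, the invariant chain of MHC class II, measured 2.48 and 0.855 CPM against 22.4 and 3.11 CPM (2.76 ± 0.78). In all 3 both glaucoma pools exceeded both naive pools, the male glaucoma pool was the nearer to naive retina, and none was called.

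Of 19 antigen presentation genes, 11 lay above naive in both pools and 0 below, with a median of 0.69 and 0 called. The 7 of MHC class II had a median of 1.37, which was 1.88 between the female and 0.32 between the male pools. Of 23 interferon-stimulated genes tested, 13 lay above and 0 below, 4 by more than 2-fold, with a median of 0.39 and 1 called. The called gene was Gbp2, a guanylate-binding protein induced by interferon, at 2.88 and 2.01 CPM against 9.09 and 6.75 CPM (1.70 ± 0.33; 0.490 and 0.00893), with a like difference in both sexes.

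**Figure D2:**
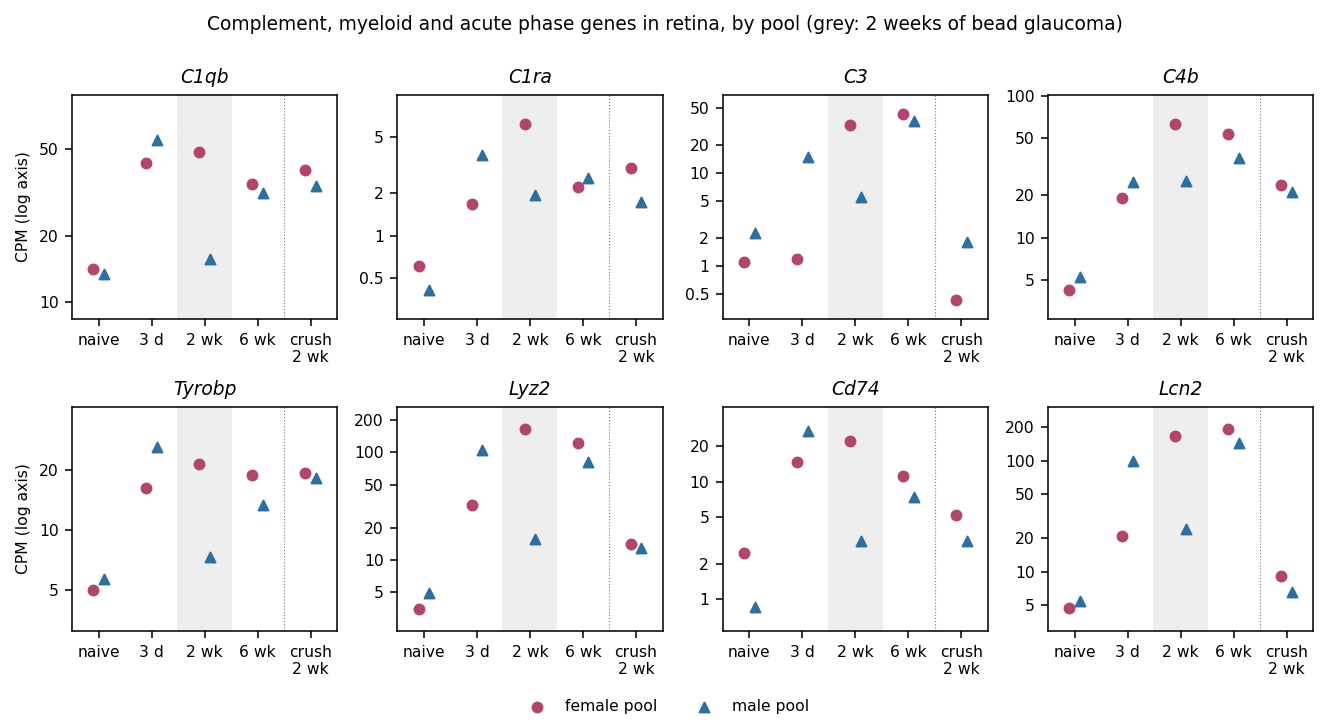
Levels of complement, myeloid and acute phase genes in CPM on a log axis, with 1 point per pool (circles female, triangles male) in the same groups, and 2 weeks of glaucoma shaded. The shaded female point is above the shaded male point in all 8 panels, most widely for Lyz2 (166 against 15.5 CPM), Lcn2 (167 against 24.2 CPM) and Cd74 (22.4 against 3.11 CPM).

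Further genes among the 75 called higher by DESeq2 follow, chosen after their values were seen. H3f3b, a gene of the replacement histone H3.3, measured 478 and 367 CPM in naive retina against 1306 and 851 CPM (1.34 ± 0.20). Ncoa5, a nuclear receptor coactivator, measured 25.3 and 21.9 CPM against 59.6 and 80.6 CPM (1.55 ± 0.19). In both genes both glaucoma pools lay above both naive pools, with log2 ratios in FPKM of 0.92 for H3f3b and 1.52 for Ncoa5. Fabp4, a fatty acid binding protein of capillary endothelium and macrophages, measured 6.04 and 4.94 CPM against 20.1 and 17.6 CPM (1.78 ± 0.26). Vwf, the endothelial von Willebrand factor, measured 6.35 and 4.47 CPM against 15.5 and 11.2 CPM (1.31 ± 0.25). Ccn1, a matricellular protein, measured 4.79 and 4.08 CPM against 12.9 and 13 CPM (1.56 ± 0.39). These 3 genes were at similar levels in the female and male glaucoma pools. The 10 endothelial marker genes as a list had a median of -0.02, with 2 above, 1 below and 0 called, and Ccn1 belongs to a list of matrix genes.

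The rule for naming genes had been written for edgeR calls, of which there were none, and was applied to the DESeq2 calls after their values were seen. It was met by 52 of the 75. The 15 highest of these by fold change were H3c14, Saa3, Muc1, Fgf2, Steap4, Lilrb4a, Edn2, Wfdc17, Serpina3n, Noxo1, Timp1, C4b, Lad1, C1ra and Ndor1. H3c14, Saa3 and Muc1 were at 0 in both naive pools, so their place in this order is no measure of size. H3c14 measured 10.7 and 11.4 CPM at 2 weeks, but 14.97 and 0 CPM at 3 days and 0 and 23.49 CPM at 6 weeks. Muc1 measured 1.75 and 0.354 CPM at 2 weeks. Genes named here beyond these 15 were also chosen after their values were seen. Noxo1, an organiser of an NADPH oxidase, measured 0.118 and 0.441 CPM against 5.01 and 2.71 CPM (3.74 ± 0.72). Lad1, a basement membrane protein, measured 0.708 and 1.88 CPM against 14.4 and 9.44 CPM (3.01 ± 0.75). Lilrb4a, an inhibitory receptor of myeloid cells, measured 0 and 0.138 CPM against 4.05 and 0.212 CPM, so its call rested on the female glaucoma pool. Jak3, a cytokine receptor kinase, measured 0.496 and 1.10 CPM against 4.12 and 4.81 CPM (2.52 ± 0.51). A2m, a protease inhibitor of plasma, measured 1.94 and 2.84 CPM against 13.8 and 6.21 CPM (1.99 ± 0.42). Ube2l6, an enzyme that conjugates the interferon-induced protein ISG15, measured 2.48 and 1.82 CPM against 16.5 and 9.53 CPM (2.57 ± 0.58), with a log2 ratio of 1.54 in FPKM. Saa3, an acute phase apolipoprotein, was at 0 in both naive pools and at 2.95 and 1.18 CPM at 2 weeks. It was 1 of 9 called genes with 0 counts in both naive pools, for which no fold change is given.

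Of the 75 genes, 47 had the larger difference between the female pools, and in 18 the female glaucoma pool was more than 2 times the male one, against 4 with the reverse. In 96 of all 100 called genes the groups were apart in the called direction. The genes were called for that difference, so neither this nor the directions kept below are independent support. Many calls changed when 1 pool was left out. Such a fit leaves 1 pool in a group, so a lost call cannot be credited to the pool rather than to the smaller fit. Without the female naive pool DESeq2 called 62 genes higher and 10 lower, without the male naive pool 94 and 13, without the female glaucoma pool 73 and 103, and without the male glaucoma pool 80 and 74. Of the 100 calls, 26, 39, 32 and 45 remained in these 4 fits, and 98, 100, 98 and 100 kept their direction. Gfap, Edn2 and C4b were called in all 4. Stat3 was not called without the female naive pool (0.86, adjusted p = 0.613 by DESeq2) or the male glaucoma pool (0.95, 0.109), and Osmr was called only without the male naive pool. Fgf2 was not called without the female naive pool (5.25, 0.146) and had no adjusted p without the female glaucoma pool. Serpina3n was not called without the female or the male naive pool, with log2 fold changes of 3.82 and 4.14. It stayed called without the male glaucoma pool (4.93) and also, at a smaller 2.48, without the female glaucoma pool. Without that pool Steap4 went to 3.22 and C1ra to 1.72, both with no adjusted p, and C1ra was also not called without the female (0.212) or the male naive pool (0.332). In FPKM, 63 of the 75 also exceeded a log2 ratio of 1, and 74 had the same sign, with Fam49a as the exception.

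**Figure D3:**
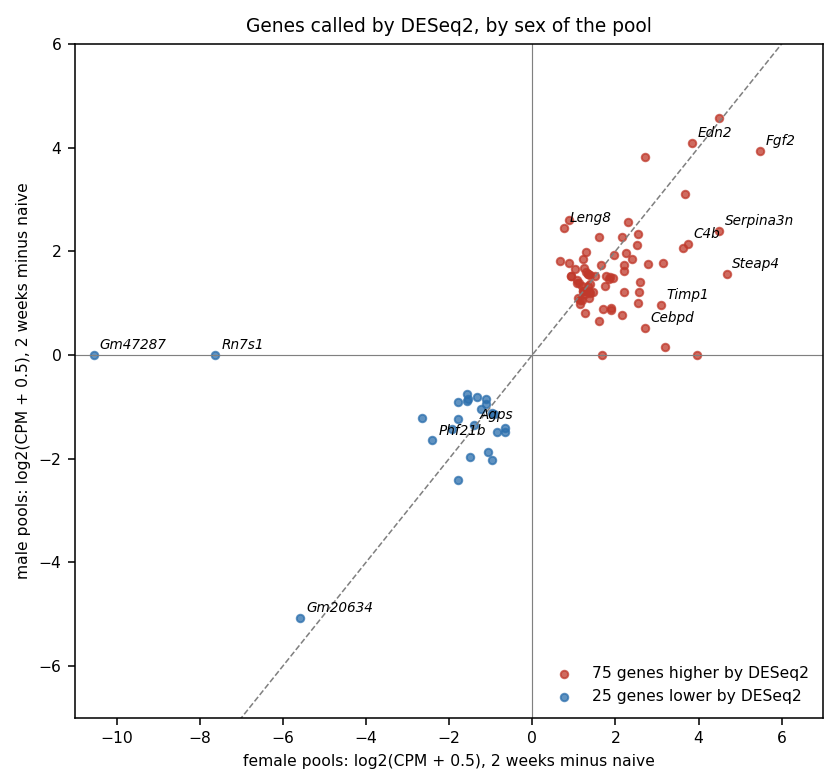
Each point is a gene called by DESeq2 (75 higher in red, 25 lower in blue). The horizontal axis is the difference between the female pools and the vertical axis that between the male pools, both 2 weeks minus naive in log2(CPM + 0.5), and the dashed line marks equal differences. Gm47287 and Rn7s1 lie far left on the zero line because only the female naive pool held counts, and Serpina3n, Steap4 and Cebpd lie right of the dashed line.

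The 25 genes called lower shared less with the lists. Slc12a5, the chloride extruder of mature neurons, measured 305 and 331 CPM in naive retina against 88.3 and 176 CPM (-1.29 ± 0.30; adjusted p = 0.695 by edgeR and 0.00196 by DESeq2). Pafah1b1, a dynein regulator, measured 94.3 and 98.2 CPM against 51.9 and 34.6 CPM (-1.17 ± 0.19; 0.362 and 8.99e-05). Tac2, the neurokinin B precursor, measured 68.1 and 58.6 CPM against 43.3 and 20.5 CPM (-1.04 ± 0.27; 0.723 and 0.0477). These 3 genes were lower in both glaucoma pools. Phf21b, a chromatin factor of neurons, measured 12.1 and 18.8 CPM against 1.87 and 5.64 CPM (-2.15 ± 0.48), with a log2 ratio of -0.90 in FPKM. Cavin2, a caveola protein of endothelium, measured 7.22 and 6.07 CPM against 1.72 and 2.29 CPM (-1.69 ± 0.38). Sgpl1, which degrades sphingosine phosphate, measured 21.9 and 30.5 CPM against 8.97 and 14.5 CPM (-1.18 ± 0.20), while its FPKM, at 5.26 and 7.01 against 3.56 and 6.91, had a log2 ratio of -0.23. Agps, an enzyme of ether lipid synthesis, measured 32.0 and 31.1 CPM against 11.7 and 11.9 CPM (-1.42 ± 0.19), but its FPKM had a log2 ratio of 0.12, in the opposite direction. Kcnq5, a potassium channel, and Mc3r, a melanocortin receptor, were at 0 in both glaucoma pools and at 1.42 and 0.855 CPM and at 0.472 and 1.54 CPM in naive retina, and were among 6 such genes. In FPKM, 14 of the 25 were below a log2 ratio of -1 and 24 had the same sign.

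Retinal ganglion cell markers passed neither test against naive retina at 2 weeks. Of the 8 marker genes, 4 lay below naive in both pools and 1 above, with a median log2 fold change of -0.18 and 0 called by either tool. Rbpms2, an RNA-binding protein of ganglion cells, was the lowest, at 46.0 and 37.3 CPM in naive retina against 26.6 and 31.0 CPM (-0.58 ± 0.39; adjusted p = 0.805 by edgeR and 0.832 by DESeq2). Its relative Rbpms measured 44.9 and 38.0 CPM against 30.7 and 42.7 CPM (-0.18 ± 0.39), and the groups overlapped. Sncg, gamma-synuclein, measured 255 and 204 CPM against 204 and 130 CPM (-0.45 ± 0.39), so that the male naive and female glaucoma pools nearly met. Tubb3, the neuronal tubulin, measured 176 and 158 CPM against 129 and 132 CPM (-0.36 ± 0.18).

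The transcription factors of ganglion cells differed little. Pou4f1 measured 13.5 and 10.6 CPM against 12.3 and 11 CPM (-0.05 ± 0.44), Pou4f2 5.74 and 5.74 CPM against 4.51 and 5.69 CPM (-0.18 ± 0.45) and Pou4f3 4.91 and 3.12 CPM against 4.30 and 3.40 CPM (-0.05 ± 0.36). Thy1, a surface glycoprotein, was the one marker above naive in both pools, at 15.6 and 37.5 CPM against 44.4 and 39.4 CPM (0.84 ± 0.41), the female naive pool being the low one.

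Small shifts to the lower side were shared more widely among neurons. All 4 neurofilament genes lay below naive in both pools, with a median of -0.24. Nefl, the light chain, measured 808 and 766 CPM against 592 and 612 CPM (-0.39 ± 0.20), and Nefm, the middle chain, 152 and 149 CPM against 137 and 127 CPM (-0.19 ± 0.16). Of 22 genes of bipolar, amacrine and horizontal cells, 11 lay below in both pools and 0 above, with a median of -0.24 and 0 called. The lowest was Th, the dopamine-synthesising enzyme of one kind of amacrine cell, at 15.9 and 15.4 CPM against 10.2 and 7.10 CPM (-0.87 ± 0.30). The 23 rod and cone genes had a median of -0.13 with 8 below and 2 above. The 12 housekeeping genes had a median of -0.10, a shift of the same sign in genes of no one cell type.

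**Figure D4:**
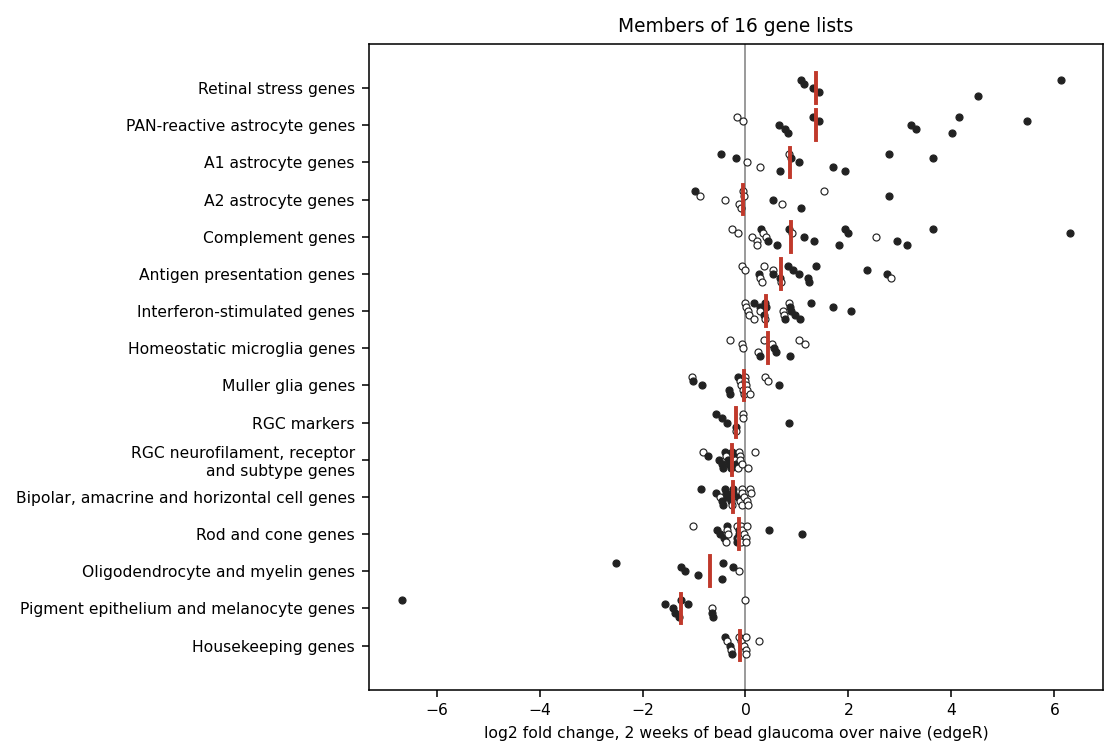
The edgeR log2 fold change of 2 weeks of glaucoma over naive retina for each tested member of 16 gene lists, with filled points where both glaucoma pools lay above or below both naive pools, open points where the groups overlapped, and a red bar at the median. The medians run from 1.37 for the stress and PAN-reactive genes to -1.26 for pigment epithelium genes, and those of the neuronal lists lie between -0.13 and -0.26.

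Against glaucoma retina at 3 days, edgeR called 1 gene higher at 2 weeks (0.00429% of 23301) and 0 lower, with 2262 genes at an unadjusted p under 0.05, and DESeq2 called 60 higher (0.372% of 16116) and 54 lower (0.335%). The edgeR call, Purb, fell outside the rule for naming and is named because it is the single call. It was at 0 in every female retina pool and at 580 CPM in the male naive pool, 212 CPM in the male pool at 2 weeks and 0 in the male pool at 3 days. Several listed genes of injury and oxidative stress were lower at 2 weeks than at 3 days by DESeq2. Atf3, a transcription factor of injured neurons, measured 74.3 and 28.1 CPM at 3 days and 20.4 and 17.0 CPM at 2 weeks (adjusted p = 0.0157 by DESeq2), beside 15 and 18.0 CPM in naive retina. Cdkn1a, the cell cycle inhibitor p21, measured 33.9 and 15.1 CPM at 3 days and 8.60 and 5.95 CPM at 2 weeks (0.00073), beside 8.40 and 9.49 CPM. Hmox1, heme oxygenase 1, measured 14.0 and 17.6 CPM and 8.17 and 4.67 CPM (0.0265), beside 8.12 and 5.6 CPM. For all 3 the range at 2 weeks overlapped that of naive retina. Mt1, a metallothionein, measured 413 and 355 CPM at 3 days and 216 and 98.6 CPM at 2 weeks (0.00073), beside 178 and 157 CPM.

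Of the 6 stress genes, 0 were called between 3 days and 2 weeks by either tool, and their median log2 difference was 0.00. Edn2 measured 17.8 and 10.7 CPM at 3 days, Gfap 61.0 and 43.7 CPM, and Stat3 125 and 80.4 CPM, and each of these ranges overlapped that at 2 weeks. Nefh, the heavy neurofilament chain, was higher at 2 weeks than at 3 days by DESeq2 (adjusted p = 0.0168), at 67.9 and 61.9 CPM against 18.2 and 42.4 CPM, while naive retina held 74.5 and 78.2 CPM.

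Against glaucoma retina at 6 weeks, edgeR called 2 genes higher at 2 weeks (0.00858% of 23301) and 0 lower, with 927 genes at an unadjusted p under 0.05, and DESeq2 called 45 higher (0.211% of 21304) and 24 lower (0.113%). Ak4, a mitochondrial adenylate kinase, measured 30.3 and 34.5 CPM at 2 weeks and 2.78 and 1.68 CPM at 6 weeks (3.86 ± 0.29; adjusted p = 0.0163 by edgeR). Its FPKM were 6.84 and 8.27 against 3.71 and 2.19, a log2 ratio of 1.34, so the size depended on the scale. Grk1, rhodopsin kinase, measured 944 and 1335 CPM at 2 weeks and 163 and 235 CPM at 6 weeks (2.52 ± 0.19; 0.0163), with a log2 ratio of 2.49 in FPKM. Both genes were near the naive level at 2 weeks, so the difference lay in the 6-week pools. The stress genes had a median of 0.63 against 6 weeks and 0 of 6 were called by either tool. Gfap measured 37.1 and 33.1 CPM at 6 weeks, below both pools at 2 weeks and above both naive pools.

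The comparison with most edgeR calls was that with retina at the same time after optic nerve crush, a direct injury to the axons. In a fit of all 12 retina libraries, edgeR called 26 genes higher in glaucoma (0.105% of 24693) and 2 lower (0.0081%), and DESeq2 called 154 higher (0.69% of 22325) and 29 lower (0.13%). Of the 8 ganglion cell markers, 3 were called higher in glaucoma by edgeR and 7 by DESeq2, with a median log2 difference of 3.27, beside 0.03 over all genes. Of 22 listed neurofilament, receptor and subtype genes, 21 were found by symbol. Of these 21, 4 were called by edgeR and 9 by DESeq2, with a median of 1.06. The gene not found, Tusc5, was listed under an older symbol of Trarg1, which is given below and is not in these counts.

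Nefl measured 592 and 612 CPM in glaucoma against 106 and 87.4 CPM after crush (2.63 ± 0.21; adjusted p = 0.000846 by edgeR). Nefm measured 137 and 127 CPM against 23.3 and 20.0 CPM (2.60 ± 0.17; 0.000185), and Slc17a6, the vesicular glutamate transporter of ganglion cells, 59.8 and 62.6 CPM against 9.57 and 9.03 CPM (2.71 ± 0.16; 0.000185). For these 3 genes the groups were apart by several times the spread within either. Among the markers, Rbpms measured 30.7 and 42.7 CPM against 3.78 and 5.68 CPM (2.96 ± 0.40; 0.0257), Sncg 204 and 130 CPM against 24.3 and 24 CPM (2.80 ± 0.36; 0.0220) and Pou4f1 12.3 and 11 CPM against 0.841 and 0.748 CPM (3.86 ± 0.46; 0.0174). Isl2, a transcription factor of ganglion cell subsets, measured 6.76 and 6.04 CPM against 0.542 and 0.526 CPM (3.57 ± 0.48; 0.0257). Calb2, the calcium-binding protein calretinin of amacrine and ganglion cells, measured 312 and 303 CPM against 117 and 103 CPM (1.48 ± 0.22; 0.0403). In crush retina these genes were below both naive pools as well.

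Of the remaining called genes, those with the highest differences were Irx4, a homeobox factor, at 2.95 and 5.14 CPM against 0.0935 and 0.139 CPM (5.09 ± 0.76; 0.0411), Trarg1, a membrane trafficking regulator, at 26.6 and 35.3 CPM against 0.972 and 1.72 CPM (4.55 ± 0.50; 0.00996), and Zfp280b, a zinc finger gene, at 30.7 and 39.7 CPM against 1.91 and 1.44 CPM (4.39 ± 0.37; 0.00113). For Zfp280b the FPKM were 6.12 and 7.11 against 4.19 and 3.23, a much smaller difference. The 2 genes lower in glaucoma were Zfp260, another zinc finger gene, at 15.8 and 13.5 CPM against 54.8 and 65.7 CPM (-2.01 ± 0.25; 0.0220; a log2 ratio of -1.06 in FPKM), and Dpm1, an enzyme of glycosylation, at 20.7 and 17.3 CPM against 59.7 and 68.1 CPM (-1.75 ± 0.23; 0.0220). Without the male glaucoma pool edgeR called 16 genes higher, and the lower calls went from 2 to 27 without the female glaucoma pool, 14 without the male glaucoma pool and 0 without the female crush pool. Of the 28 calls, 8 and 9 remained without the female and the male crush pool, and 20 and 13 without the female and the male glaucoma pool.

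Of the 6 stress genes, none was called between glaucoma and crush at 2 weeks by edgeR or DESeq2, and their median log2 difference was 0.15. The difference was 0.19 ± 0.23 for Gfap, 0.11 ± 0.19 for Stat3, 0.07 ± 0.32 for Osmr, 0.34 ± 0.30 for Socs3, -0.91 ± 0.55 for Edn2 and 1.48 ± 0.66 for Fgf2, and these errors do not show that the injuries act alike. Steap4 measured 14.7 and 1.63 CPM in glaucoma and 0.467 and 0.554 CPM after crush, and C3 32.8 and 5.50 CPM against 0.430 and 1.83 CPM, both apart but not called by edgeR (adjusted p = 0.223 and 0.458). DESeq2 called Steap4 higher in glaucoma (adjusted p = 6.64e-05) and did not call C3 (0.106).

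**Figure D5:**
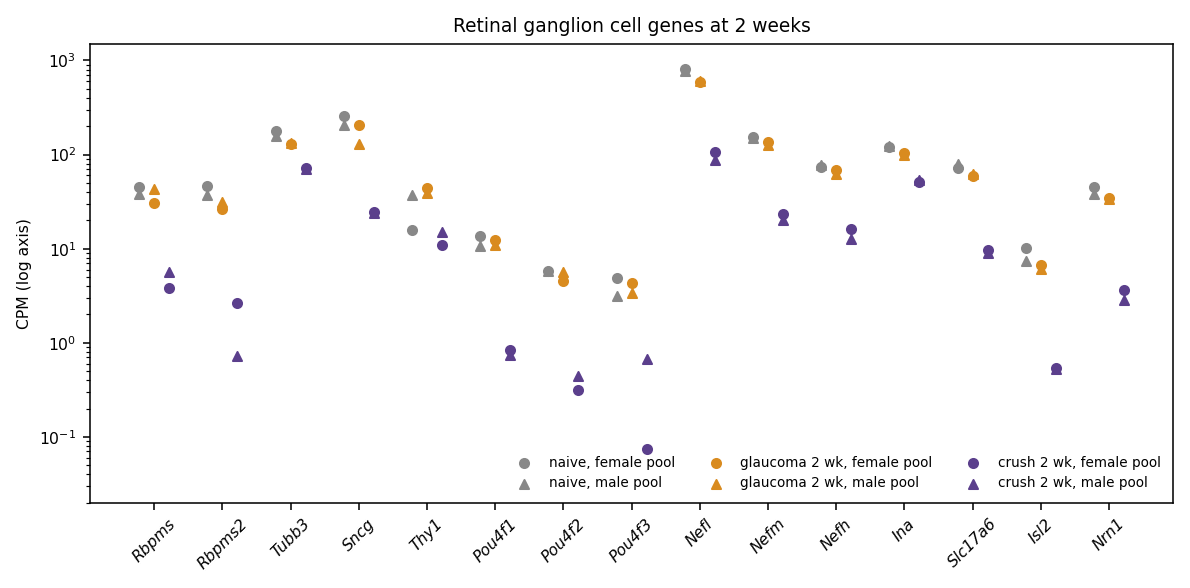
Levels of 15 retinal ganglion cell genes in CPM on a log axis in naive retina (grey), 2 weeks of glaucoma (orange) and 2 weeks after crush (purple), with 1 point per pool (circles female, triangles male). The orange points lie near the grey ones, and the purple points lie below both for every gene shown, for Nefl at 106 and 87.4 CPM beside 592 and 612 CPM in glaucoma.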

How the data were processed

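RNA of retina pools was sequenced as read pairs after ultra-low-input library preparation. The authors aligned reads with HISAT2 2.2.1 to GRCm38 and assembled transcripts with StringTie 1.3.0 against Gencode M25, and they deposited estimated counts per gene, of which a read pair adds about 4, and FPKM per gene and sample. The estimated counts were rounded. Genes were kept by edgeR's filter (minimum count 10, total 15), which left 23301 of 55487 genes over the 8 naive and glaucoma retina libraries and 24693 over all 12 retina libraries. Libraries were scaled by TMM factors. The model held group and sex (3 residual degrees of freedom for the 8 libraries). edgeR 4.0.16 (quasi-likelihood F test) was the main test and DESeq2 1.42.0, with the same model terms, the alternative, in R 4.3.3. The filter and the TMM factors above were used for edgeR only. DESeq2 was given all genes and used its own size factors and its own filter. The 2 tools thus tested different sets of genes, each with Benjamini-Hochberg adjustment over all genes tested. Calls needed a change of more than 1 on the log2 scale besides an adjusted p below 0.05. Both were also run on counts simulated from the fitted spread of each gene, with no difference between the sexes. The outcome is not reported here, and the simulation does not show how either tool performs on these pools. An adjusted p that DESeq2 left out stayed missing. FPKM slightly below 0 in 5 deposited tables were set to 0.

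Names followed a rule: all ganglion cell markers, stress and complement genes, called members of lists, the extremes of each list described, and up to 15 called genes per direction (5 for the other comparisons) by fold change, with a level of at least 1 CPM and the same direction in both sexes. Some genes that this rule covers are not reported here. The members and the 39 lists (582 entries, 546 of 548 distinct genes found by the symbol listed) were chosen with earlier results of these data known. Promoter windows came from RefSeq on GRCm38.p6. Optic nerve libraries were not used here. Each group has 2 pools, and levels near that of 1 count carry large counting error.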

Additional observations from a re-analysis of the deposited data

Results flagged for a closer look

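The following genes were singled out because a direct test of glaucoma at 2 weeks against another injured group passed its threshold, and they are given as edgeR log2 differences with adjusted p. Against 6 weeks of glaucoma, Ak4 (3.86, 0.0163) and Grk1 (2.52, 0.0163) were higher, with log2 ratios in the deposited FPKM of 1.34 for Ak4 and 2.49 for Grk1. Against 3 days, Purb differed by 15.34 (0.0481), a fitted value against 0 counts that is no measure of size, since every female retina pool was at 0.

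Against 2 weeks after crush, 11 named genes were higher. These were Irx4 (5.09, 0.0411), Trarg1 (4.55, 0.00996), Zfp280b (4.39, 0.00113), Pou4f1 (3.86, 0.0174), Isl2 (3.57, 0.0257), Rbpms (2.96, 0.0257), Sncg (2.80, 0.0220), Slc17a6 (2.71, 0.000185), Nefl (2.63, 0.000846), Nefm (2.60, 0.000185) and Calb2 (1.48, 0.0403). Zfp260 (-2.01, 0.0220) and Dpm1 (-1.75, 0.0220) were lower. The FPKM gave a log2 ratio of 0.82 for Zfp280b.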

How the results depend on the processing

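Counts of called genes depended on the tool, the filter and single pools, and the cause was not tested. Given as genes higher and genes lower, DESeq2 called 75 and 25 against naive retina, 60 and 54 against 3 days, 45 and 24 against 6 weeks and 154 and 29 against crush. edgeR with no filter on low counts called 15 and 2, 10 and 3, 5 and 3, and 72 and 14 in the same order. Without the sex term it called 1 gene higher against naive retina, 0 higher against 3 days and 4 lower against crush. In fits of only the 4 libraries compared it called 2 and 2 against naive retina, 2 and 3 against 3 days, 0 higher against 6 weeks and 8 lower against crush. Counts divided by 4 gave 2 higher against 3 days, all 12 retina libraries 3 and 1 against 3 days, and 6 libraries 5 lower against crush. RLE size factors kept all counts of calls within 1.5 times. With each pool left out in turn, edgeR called 0 to 6 higher and 0 to 8 lower against naive retina, 1 to 6 and 2 to 8 against 3 days, 3 to 13 and 4 to 7 against 6 weeks, and 16 to 26 and 0 to 27 against crush, and DESeq2, added after the data were seen, 62 to 94 and 10 to 103 against naive retina.

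Over the same left-out pools, 11 uncalled genes changed sign in the log2 fold change against naive retina, with ranges over both tools of -0.51 to 0.12 for Rbpms, -1.05 to 0.031 for Rbpms2, -0.36 to 0.30 for Pou4f1, -0.37 to 0.31 for Pou4f3, -0.53 to 1.77 for C1s1, -0.80 to 0.77 for Cfi, -1.16 to 1.19 for Cd55, -0.37 to 0.070 for Cd59a, -1.50 to 2.30 for C4bp, -1.19 to 1.13 for C3ar1 and -0.40 to 1.40 for Itgam. The deposited FPKM reversed Agps, to 0.12. The labels give no replicate numbers, and the sex term pairs the female and the male pools across groups. The fits rest on 2 pools a group and 3 residual degrees of freedom, and levels near 0.1 CPM, such as Itgax at 0.0944 CPM, rest on about 4 counts, or 1 read pair.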

Other observations

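Of the further gene lists given here, only that of matrix and matrix remodelling genes held calls. Of its 25 tested genes, 10 lay above naive in both pools and 5 below, with a median log2 fold change of 0.24. DESeq2 called 4 higher, among them Ccn1, Serpina3n and Timp1. Serpina3n and Timp1 were also counted among the PAN-reactive genes, so their calls here add nothing new. The 14 genes of neuronal injury and regeneration had a median of -0.18 and 0 called. Sprr1a, a growth-associated gene of injured axons, was the highest of that list, at 0 in both naive pools and at 3.84 and 0.283 CPM at 2 weeks, beside 18.8 and 1.96 CPM at 3 days and 0 in both pools at 6 weeks.

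The 18 targets of the integrated stress response had a median of -0.02, with 1 above and 4 below, and the 15 genes of the NRF2 response, metallothioneins and iron a median of -0.12, with 2 above and 3 below, and 0 called in either list. Of 14 immediate early genes, 6 lay above and 2 below, with a median of 0.01 and 0 called. Crx, a transcription factor of photoreceptors, measured 115 CPM in the female glaucoma pool and 896 CPM in the male one, against 897 and 824 CPM in naive retina.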
